A study of Mus musculus with 2 samples.

Results

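The genes described here are 9 transcripts that respond to glucocorticoids, chosen by name: Nr3c1, which encodes the glucocorticoid receptor, and Fkbp5, Tsc22d3, Dusp1, Ddit4, Sgk1, Klf9, Txnip and Il1r2. They are 9 of the 24014 gene symbols measured, and all 9 were found in both libraries. Bone marrow cells came from male wild-type mice of a strain that the labels write as C57B/6 and describe as young. The high fat diet (HFD) library came from mice fed a diet with 60% fat for 16 weeks, and the normal diet (ND) library from mice fed normal chow over the same period. Each diet had 1 library, made on BD Rhapsody, a microwell platform that captures the mRNA of single cells and tags each captured molecule with a unique molecular identifier (UMI). The labels give neither the number of animals in a library, nor any pooling, nor any sort of the marrow cells. Every HFD against ND difference below therefore has no replicate, carries no p-value, and compares these libraries rather than the diets.

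Glucocorticoids are adrenal steroid hormones that enter cells and bind the receptor, which is held in the cytosol by heat shock protein chaperones and then moves to the nucleus. There the receptor induces genes that end the signal, restrain MAP kinase and NF-kB signalling, slow growth and adjust glucose use. In marrow and blood, glucocorticoids are known to mobilise neutrophils, to kill developing and resting lymphocytes and to dampen cytokine production by monocytes and macrophages. Most of the induced genes also respond to other inputs, among them hypoxia, amino acid shortage, insulin, glucose, cyclic AMP and cell handling.

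Promoter windows from RefSeq (build GRCm38.p6, 250 bases before to 50 bases after a gene's start) were present for 8 of the 9 genes, 15 windows in all, and Nr3c1 had none. They were searched on both strands for the glucocorticoid response element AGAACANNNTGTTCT, its hexamer AGAACA, the cyclic AMP response element TGACGTCA, the forkhead element GTAAACA, the hypoxia core ACGTG and the E-box CACGTG, which contains the hypoxia core. The full glucocorticoid element was in 3 of 32851 mouse windows (0.00913%), and 1 of these 3 was a window of Sgk1, shown here with the element in capitals (chr10:21993640-21993939, plus strand). The windows of Ddit4 (chr10:59951721-59952020, minus strand) and Dusp1 (chr17:26508423-26508722, minus strand) are shown because Ddit4 was called in 5 classes and Dusp1 was called higher in 2. Their capitals mark a hypoxia core, held by 19.6% of windows, and a cyclic AMP element, held by 1.79%. Each is written 5′ to 3′ on the strand of its gene.
Sgk1: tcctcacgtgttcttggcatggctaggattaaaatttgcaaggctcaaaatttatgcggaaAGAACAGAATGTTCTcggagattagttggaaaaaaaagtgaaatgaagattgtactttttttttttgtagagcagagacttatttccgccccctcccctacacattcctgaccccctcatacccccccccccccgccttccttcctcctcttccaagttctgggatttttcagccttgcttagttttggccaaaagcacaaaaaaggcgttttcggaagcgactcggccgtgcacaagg
Ddit4: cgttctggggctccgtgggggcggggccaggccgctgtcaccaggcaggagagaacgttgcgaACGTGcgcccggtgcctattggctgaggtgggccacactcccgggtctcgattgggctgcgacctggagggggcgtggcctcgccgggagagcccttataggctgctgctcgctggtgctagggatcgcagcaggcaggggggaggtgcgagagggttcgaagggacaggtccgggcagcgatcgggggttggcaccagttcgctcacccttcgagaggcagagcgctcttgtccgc
Dusp1: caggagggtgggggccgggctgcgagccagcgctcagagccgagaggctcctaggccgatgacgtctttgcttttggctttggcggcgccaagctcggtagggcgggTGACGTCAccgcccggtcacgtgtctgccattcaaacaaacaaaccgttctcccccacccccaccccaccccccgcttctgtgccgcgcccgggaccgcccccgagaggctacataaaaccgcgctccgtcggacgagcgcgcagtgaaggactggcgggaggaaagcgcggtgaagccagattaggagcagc
The Klf9 and Txnip windows each held the forkhead element, which 3.65% of windows hold. The hexamer, which 18.97% of windows hold, was in some but not all windows of Tsc22d3 and Sgk1. Tsc22d3 had 3 windows and Sgk1 had 6, while each other gene with a window had 1. The shares here are of windows, so a gene with more windows had more places to hold a motif. The E-box, present in 7.15% of windows, was in windows of Fkbp5, Il1r2, Sgk1 and Dusp1. The hypoxia core was not particular to Ddit4: windows of Il1r2, Sgk1, Dusp1, Fkbp5 and Klf9 held it too. In the Sgk1 and Dusp1 windows printed above, the E-box and hypoxia core are left in lower case. These matches describe the letters of the windows only.

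The HFD library held 17282 cells with a median of 3625.5 UMIs and the ND library 16817 cells with a median of 3644.0 UMIs. Cell index numbers were shared by 329 cells of the libraries. Of these, 250 were kept in both, and only 22 of them fell in the same cell class in both. After filtering, 15214 HFD and 13890 ND cells remained, with 110678833 and 109686967 UMIs. Clusters were named by marker genes, with the 9 genes left out of the clustering, and 18 classes with at least 100 cells in each library were compared. In each class, UMIs were summed over its cells and scaled to a class total of 1000000 (CPM). A gene with at least 20 UMIs over both libraries in a class was called higher or lower when HFD over ND reached 1.5-fold and the 95% interval of its log2 ratio left out 0. These intervals cover counting error only, not animals, preparations or the clustering of UMIs in cells. Where other cell types carried RNA into a class, or where a class held cells of another type, the source cannot be told apart from expression in the class itself.

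Among the 162 pairs of gene and class, 142 had at least 20 UMIs, of which 9 were called higher and 3 lower in the HFD library, while 20 fell under the minimum. Over all genes in the same 18 classes, 2.6% of pairs were called higher and 2.24% lower. Of the 9 pairs called higher, 5 were of Ddit4, 2 of Dusp1, 1 of Tsc22d3 and 1 of Il1r2. The pairs called lower were Nr3c1 and Tsc22d3 in plasma cell-like cells and Klf9 in ILC2-like cells, group 2 innate lymphoid cells. No pair of Fkbp5, Sgk1 or Txnip was called in either direction.

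**Figure D1:**
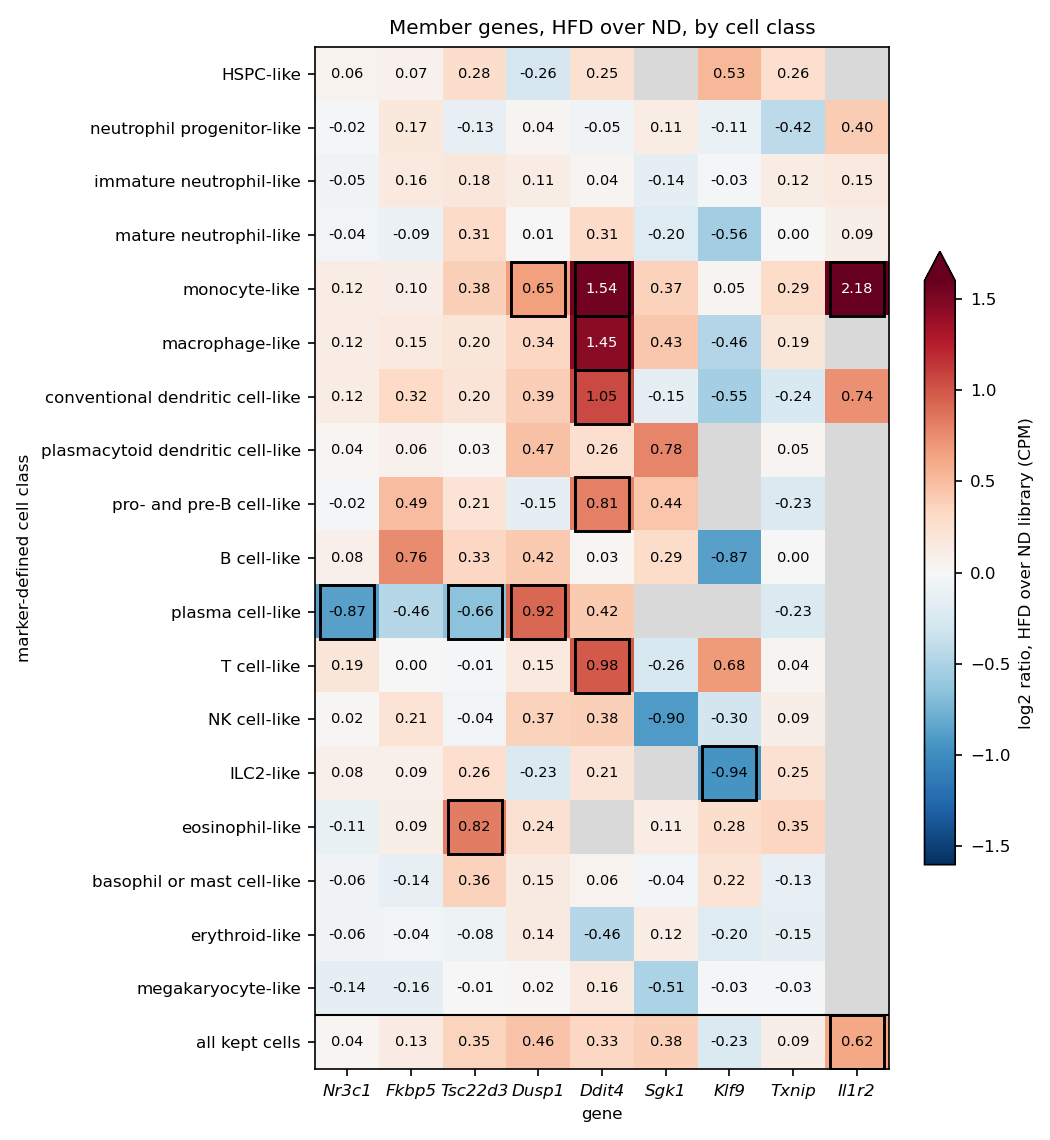
Log2 ratio of CPM, HFD over ND library, for each gene (columns) in each marker-defined class and in all kept cells (rows). Black frames mark called pairs and grey cells have under 20 UMIs; Ddit4 holds 5 of the frames, the highest of them at 1.54 in monocyte-like cells.

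Nr3c1, the receptor itself, was detected in every class. Its level was highest in ILC2-like cells, at 192 CPM in HFD and 182 CPM in ND, and in mature neutrophil-like cells, at 174 CPM in HFD and 179 CPM in ND. It was low in neutrophil progenitor-like cells (54.5 CPM in HFD, 55.3 CPM in ND) and eosinophil-like cells (49.5 CPM in HFD, 53.5 CPM in ND). The highest class stood 4.47-fold above the lowest in HFD and 3.40-fold in ND, a narrower range than for any other of the genes with UMIs in every class, and 15 of 17 neighbours in the order had overlapping intervals in each library. Along the neutrophil stages, the level was higher at each later stage in both libraries, with 115 CPM in HFD and 119 CPM in ND at the immature stage.

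Plasma cell-like cells, the antibody-secreting end stage of B cells, were the only class with a call for Nr3c1. The receptor transcript had 64 UMIs in 135 HFD cells against 123 UMIs in 141 ND cells, or 42.9 CPM in HFD and 78.5 CPM in ND, a log2 ratio of -0.87 (-1.33 to -0.43). It was seen in 33.3% of HFD and 51.1% of ND cells at near-equal median depths of 11287 and 11345 UMIs. In this class 6.2% of all genes were called lower, the highest share among the 18 classes. In the other 17 classes the ratio lay between -0.14 and 0.19.

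Plasma cell-like cells also had lower Tsc22d3, which encodes GILZ, a leucine zipper protein that binds NF-kB and AP-1. Its 93 HFD and 154 ND UMIs gave 62.3 CPM in HFD and 98.3 CPM in ND (log2 ratio -0.66, -1.05 to -0.28). Dusp1, the phosphatase that switches off p38 and JNK MAP kinases, went the other way in the same cells. It had 203 CPM in HFD and 107 CPM in ND (303 and 168 UMIs, log2 ratio 0.92, 0.64 to 1.20), where 2.68% of all genes were called higher. Of the 141 ND cells, 6 carried over 1% immature neutrophil marker UMIs, against 0 of 135 HFD cells, and summed markers of that stage stood at 233 CPM in HFD and 2592 CPM in ND. Without those cells the 3 calls held, at -0.84 for Nr3c1, -0.72 for Tsc22d3 and 0.88 for Dusp1. With every cell thinned to 1000 UMIs, the Tsc22d3 ratio turned to 0.44 with an interval of -0.86 to 1.79. The Tsc22d3 call was also lost with each cell weighted alike, at -0.57.

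Fkbp5 encodes a co-chaperone that lowers the receptor's affinity for hormone and so closes a feedback loop. It was highest in ILC2-like cells (119 CPM in HFD, 112 CPM in ND), followed by neutrophil progenitor-like cells (92.2 CPM in HFD, 81.7 CPM in ND). Its level was lower at each later neutrophil stage, opposite to that of Nr3c1, with 53.2 CPM in HFD and 47.7 CPM in ND at the immature stage and 39.1 CPM in HFD and 41.6 CPM in ND at the mature stage. B cell-like cells (12.1 CPM in HFD, 7.14 CPM in ND) and plasma cell-like cells (6.03 CPM in HFD, 8.30 CPM in ND) held the least. The ratio was above 0 in 13 of 18 classes, with a median of 0.09, and no class passed the rule.

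Within classes, Fkbp5 was called higher in 2 and lower in 1 of 30 clusters tested, and these are given here. Plasmacytoid dendritic cells are the marrow's type I interferon producers, and the cluster of them led by Siglech and Ccr9 had 22 CPM in HFD and 40.5 CPM in ND (31 and 73 UMIs, log2 ratio -0.88, -1.53 to -0.25). In that cluster 2.48% of all genes were called lower. The other cluster of the class, led by Dntt, had a ratio of 0.12. The immature neutrophil-like cluster led by Mmp8 and Mmp9 had 42.1 CPM in HFD and 27 CPM in ND (108 and 56 UMIs, log2 ratio 0.64, 0.16 to 1.13), where 2.2% of genes were called higher. In the B cell-like cluster led by Ighd and Fcer2a, 18 HFD UMIs stood against 5 ND UMIs (log2 ratio 1.58, 0.10 to 3.37), with 3.1% of genes called higher there.

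Tsc22d3 was highest in B cell-like cells, at 187 CPM in HFD and 148 CPM in ND, and in mature neutrophil-like cells, at 152 CPM in HFD and 123 CPM in ND. Erythroid-like cells held the least, at 6.46 CPM in HFD and 6.81 CPM in ND. The highest class stood 28.9-fold above the lowest in HFD and 21.8-fold in ND. Eosinophil-like cells, granulocytes led by Prg2 and Epx, passed the rule upward with 81 HFD UMIs against 43 ND UMIs, or 45.5 CPM in HFD and 25.9 CPM in ND (log2 ratio 0.82, 0.27 to 1.38). The share of all genes called higher in that class was 3.16%. The transcript was seen in 17.6% of HFD and 13% of ND eosinophil-like cells, although their median depth was lower in HFD, at 1679.5 UMIs against 2518 UMIs. Immature neutrophil markers summed to 5425 UMIs in HFD and 2677 UMIs in ND in this class. The call held without the 68 HFD and 38 ND cells that carried over 1% of such UMIs. It was lost in cells thinned to 1000 UMIs, at 0.62 with an interval of -0.25 to 1.54.

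Basophil or mast cell-like cells fell into a pair of clusters that differed in Tsc22d3. In the cluster led by Ccl4 and Ccl3 it had 84 CPM in HFD and 47.1 CPM in ND (247 and 151 UMIs, log2 ratio 0.83, 0.54 to 1.14), against 2.37% of all genes called higher. The cluster led by the proteases Mcpt8 and Prss34 had a ratio of -0.17 (-0.52 to 0.17). Smaller differences below the rule's size but with intervals above 0 stood in monocyte-like (0.38), basophil or mast cell-like (0.36), B cell-like (0.33), mature neutrophil-like (0.31) and HSPC-like cells (0.28), the haematopoietic stem and progenitor cells.

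**Figure D2:**
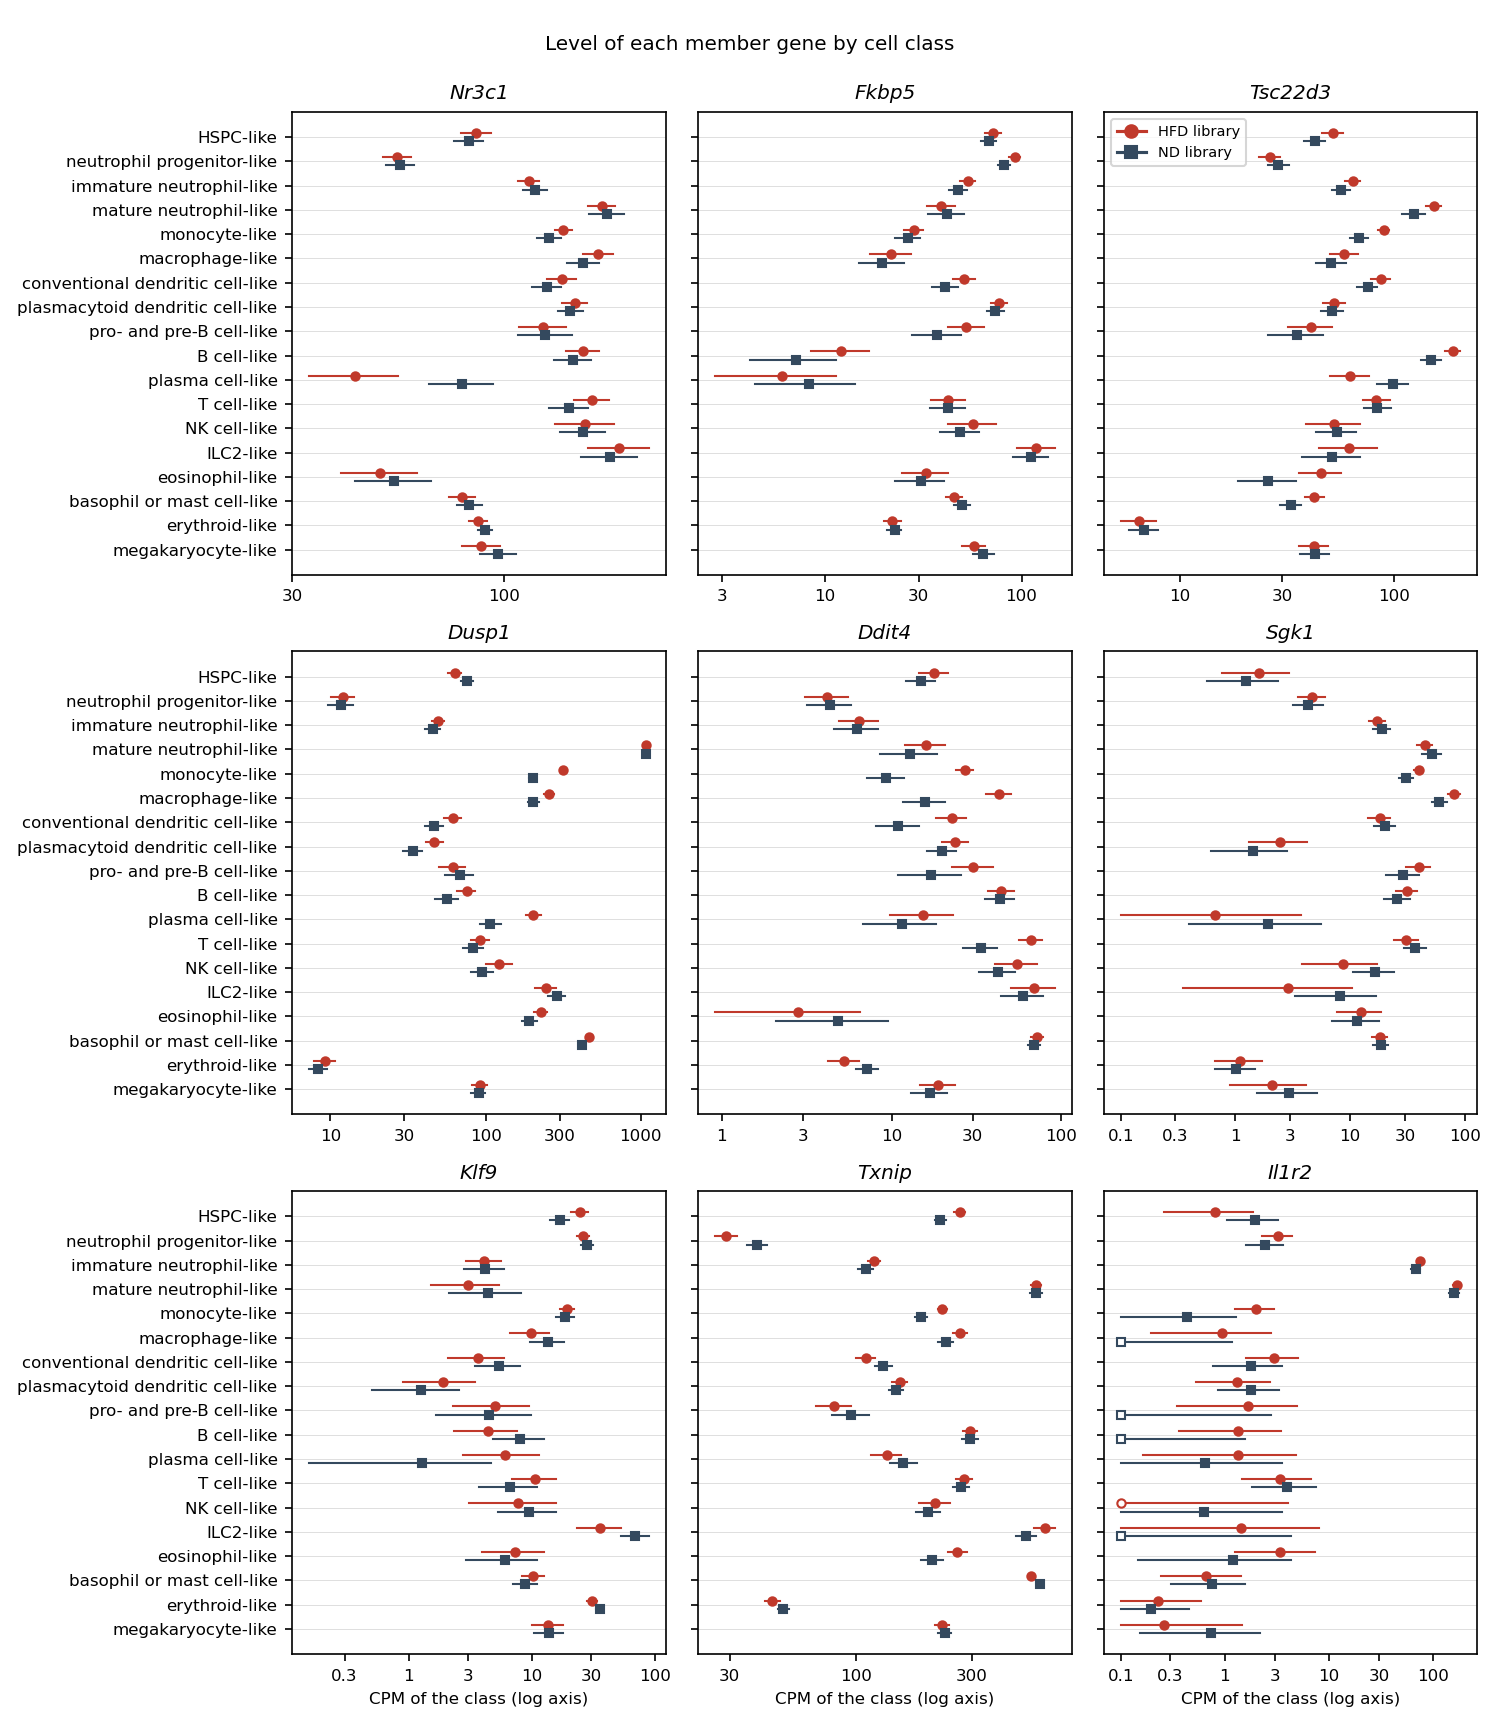
CPM of each gene (panels, log axes) in the 18 classes, with the HFD library as circles and the ND library as squares and bars as 95% counting intervals; open symbols at the axis edge are classes without a UMI. For most pairs the bars of the libraries overlap, and for Dusp1 the highest class stands 118-fold above the lowest in HFD and 129.5-fold in ND.

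Ddit4 encodes REDD1, a stress-induced inhibitor of mTORC1 that glucocorticoids, hypoxia and amino acid shortage all induce. Among monocyte-like cells it had 301 UMIs in 1870 HFD cells against 64 UMIs in 1079 ND cells, or 27 CPM in HFD and 9.29 CPM in ND, a 2.91-fold difference. Among macrophage-like cells, led by C1qc and Vcam1, it had 136 HFD and 49 ND UMIs, or 42.8 CPM in HFD and 15.7 CPM in ND (log2 ratio 1.45, 0.97 to 1.95). Both are mononuclear phagocytes. The shares of all genes called higher were 2.61% in monocyte-like and 3.52% in macrophage-like cells.

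Conventional dendritic cell-like cells, which present antigen on MHC class II, had 99 HFD and 49 ND Ddit4 UMIs, or 22.6 CPM in HFD and 10.9 CPM in ND (log2 ratio 1.05, 0.54 to 1.58; 2.02% of genes called higher). T cell-like cells had 156 HFD and 76 ND UMIs, or 66 CPM in HFD and 33.5 CPM in ND (0.98, 0.57 to 1.39; 3.42%). Precursors of B cells (the pro- and pre-B cell-like class) had 54 HFD and 23 ND UMIs, or 30.1 CPM in HFD and 17.2 CPM in ND (0.81, 0.08 to 1.58; 2.82%). The precursor call was the least steady of the 5: it was kept in 7 of 14 other settings, with ratios down to 0.26. It was lost in every setting that clustered the cells anew, by cell filter, doublets, resolution or variable genes. It was also lost with each cell weighted alike. Those that kept it changed the scaling or count minimum, or left out few or no cells of this class. The monocyte, macrophage and T cell calls were kept in all 16 settings tried for them, and the dendritic cell call in 15 of 16. Some settings, such as leaving out a cluster of another class, could not change a call. Ratios of the mature neutrophil-like (0.31), plasma cell-like (0.42) and NK cell-like (0.38) classes were also above 0, with intervals that included 0.

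Other classes with much Ddit4 had ratios near 0. Basophil or mast cell-like cells had 71.8 CPM in HFD and 68.8 CPM in ND (0.06, -0.10 to 0.22), and B cell-like cells had 44.1 CPM in HFD and 43.3 CPM in ND (0.03, -0.36 to 0.41). Erythroid-like cells stood the other way, at 5.25 CPM in HFD and 7.20 CPM in ND (-0.46, -0.84 to -0.09), short of the rule. The difference therefore did not run through every class in which the gene was abundant.

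In cells thinned to 1000 UMIs, the share with a Ddit4 UMI was 4.33% in HFD and 1.03% in ND monocyte-like cells, and 7.17% in HFD and 2.89% in ND T cell-like cells. Among macrophage-like cells it was 1.61% in HFD and 0.781% in ND, after leaving out 592 HFD and 694 ND shallower cells. Unthinned shares were 10.5% in HFD and 4.73% in ND for monocyte-like cells, at median depths of 4199.5 and 5041 UMIs. No class can be taken to lack this gene. In the class with the lowest CPM among those with at least 20 UMIs in HFD, neutrophil progenitor-like cells, the unthinned shares were 7.30% in HFD and 7.22% in ND at far greater median depths of 21771.5 and 21917 UMIs, and the thinned shares 0.188% in HFD and 0.206% in ND. Markers of mature neutrophils summed to 2229 CPM in HFD and 2307 CPM in ND in monocyte-like cells, none of the 16 markers being at 0.

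Monocyte-like cells comprised cluster 22 (led by Ace and Nr4a1, genes of patrolling monocytes), cluster 26 (Fn1, Vcan and Ccr2, of classical monocytes) and cluster 6 (Fn1 and F13a1). Ddit4 passed the rule in each of them. Cluster 22 had 72.2 CPM in HFD and 35.6 CPM in ND (232 and 50 UMIs, log2 ratio 1.02), cluster 26 had 18.3 CPM in HFD and 6.36 CPM in ND (49 and 12 UMIs, 1.53), and cluster 6 had 20 HFD and 2 ND UMIs (2.77, 0.73 to 5.91). The shares of all genes called higher were 3.02%, 3.44% and 1.82% in clusters 22, 26 and 6. Cluster 22, where the gene was most abundant, made up 54.1% of HFD and 42.8% of ND monocyte-like cells, so the class ratio also carries that mix. Without cluster 22 the class ratio was 1.77, still past the rule.

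Among macrophage-like cells, the call rested on the deeper cluster 19, with 120 HFD and 36 ND UMIs (1.49, 0.94 to 2.07; 3.57% of genes called higher). Cluster 29, with a median of 928 UMIs per cell, had 16 HFD and 13 ND UMIs (0.65, -0.50 to 1.82). In all, Ddit4 was called higher in 8 of 28 clusters and lower in 1, an erythroid-like cluster with 4 HFD and 24 ND UMIs (-1.66, -3.65 to -0.12; 2.05% of genes called lower). The eighth of the higher clusters was the Siglech and Ccr9 plasmacytoid cluster, at 46.9 CPM in HFD and 29.4 CPM in ND (0.67, 0.13 to 1.22; 3.03% of genes called higher), the same cluster in which Fkbp5 was lower.

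**Figure D3:**
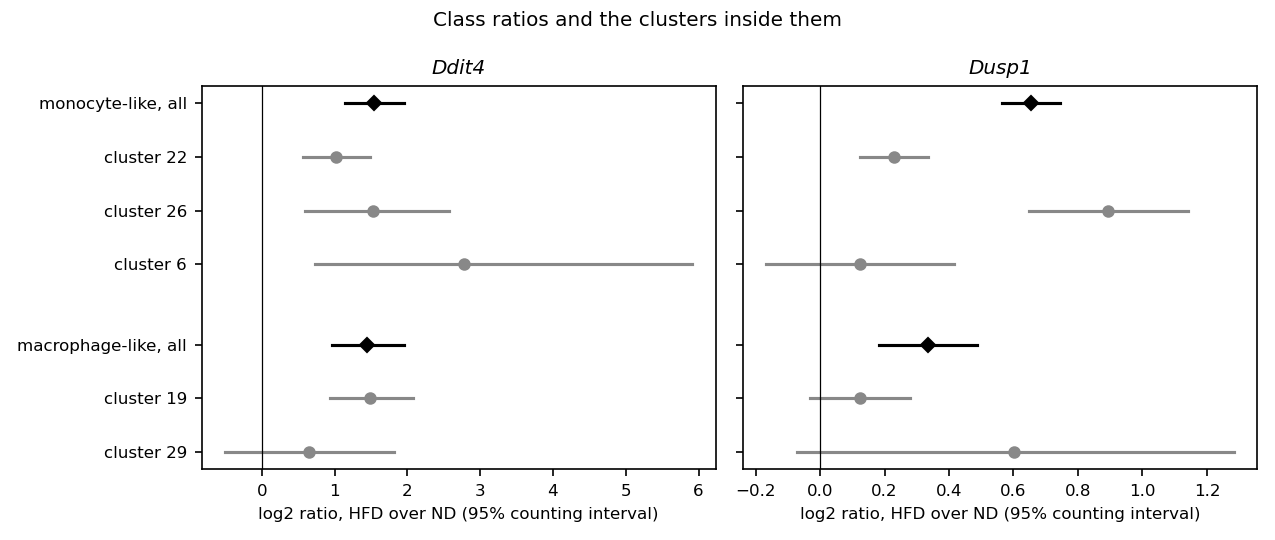
Log2 ratio, HFD over ND library, with 95% counting intervals for Ddit4 and Dusp1 in monocyte-like and macrophage-like cells (diamonds) and in the clusters inside each class (circles). Each monocyte-like cluster lies above 0 for Ddit4, whereas for Dusp1 cluster 26, at 0.89, stands apart from clusters 22 and 6, at 0.23 and 0.12.

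Dusp1 was most abundant in mature neutrophil-like cells, with 1087 CPM in HFD and 1083 CPM in ND (log2 ratio 0.01, -0.07 to 0.08). Monocyte-like cells passed the rule, with 316 CPM in HFD and 201 CPM in ND (3520 and 1382 UMIs, log2 ratio 0.65, 0.56 to 0.75). Inside the class, cluster 26 had 186 CPM in HFD and 100.1 CPM in ND (0.89, 0.65 to 1.14), while cluster 22 had 861 CPM in HFD and 734 CPM in ND (0.23) and cluster 6 had 49.0 CPM in HFD and 45.0 CPM in ND (0.12). The call was lost without cluster 22 (0.57), with each cell weighted alike (0.48) and with cells thinned to 1000 UMIs (0.43). Dusp1 is also an immediate early gene of cell handling. Of the 22 tested genes of that group, Dusp1 and Klf2 (0.64) were called higher in monocyte-like cells and none lower, with a median of 0.27, where 2.61% of all genes were called higher and 1.76% lower. In plasma cell-like cells, Dusp1 alone of 20 tested genes of that group was called higher and 5 were called lower, with a median of -0.16. Of all genes there, 2.68% were called higher and 6.2% lower. The part of cell handling in the Dusp1 differences of these classes was not tested.

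Sgk1, a kinase that acts beside Akt on ion channels and FoxO factors, held the full response element in 1 of its 6 promoter windows. It was highest in macrophage-like cells (80.8 CPM in HFD, 59.9 CPM in ND; log2 ratio 0.43, 0.16 to 0.71) and mature neutrophil-like cells (44.6 CPM in HFD, 51.3 CPM in ND; -0.20, -0.56 to 0.15). Monocyte-like cells had 39.6 CPM in HFD and 30.8 CPM in ND (0.37, 0.13 to 0.61). The ratio was above 0 in 8 of 15 classes with enough UMIs, with a median of 0.11 and none past the rule. NK cell-like cells had the lowest ratio, from 8 HFD and 26 ND UMIs (-0.90, -2.25 to 0.29).

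Klf9, a zinc finger repressor induced by glucocorticoid and thyroid hormone, tended below 0: its ratio was above 0 in 5 of 15 classes, with a median of -0.11. ILC2-like cells held the most in ND and passed the rule downward, with 25 HFD and 59 ND UMIs, or 35.8 CPM in HFD and 68.7 CPM in ND (-0.94, -1.68 to -0.24), in a class where 2.5% of genes were called lower. That call was lost in 5 of 15 other settings, in which the ratio stayed at or below -0.70. Erythroid-like cells had 30.7 CPM in HFD and 35.3 CPM in ND (-0.20, -0.36 to -0.05). HSPC-like cells stood above 0, with 24.3 CPM in HFD and 16.9 CPM in ND (0.53, 0.17 to 0.88), just short of the size required.

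Txnip encodes an arrestin-fold protein that restrains glucose uptake and binds thioredoxin. It was abundant in ILC2-like cells (598 CPM in HFD, 503 CPM in ND; 0.25), mature neutrophil-like cells (552 CPM in both libraries; 0.00) and basophil or mast cell-like cells (524 CPM in HFD, 574 CPM in ND; -0.13). Neutrophil progenitor-like cells held the least, with 29.1 CPM in HFD and 39 CPM in ND (-0.42, -0.63 to -0.21), and the level was higher at each later neutrophil stage in both libraries. No class passed the rule and the class ratios ran from -0.42 to 0.35. Among clusters, monocyte-like cluster 22 was called higher (395 CPM in HFD, 261 CPM in ND; 0.60, 0.43 to 0.77). An erythroid-like cluster led by Hba-a2 was called lower (94.2 CPM in HFD, 185 CPM in ND; -0.97), where 17.1% of all genes were called lower too.

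Il1r2, the decoy receptor that captures interleukin-1, was found mainly in the later neutrophil stages. Mature neutrophil-like cells had 614 UMIs in HFD and 356 UMIs in ND, or 168 CPM in HFD and 157 CPM in ND (0.09, -0.10 to 0.28), and 29.1% of cells in each library carried a UMI. Immature neutrophil-like cells had 75.2 CPM in HFD and 67.6 CPM in ND (0.15, -0.01 to 0.33). Neutrophil progenitor-like cells had 3.23 CPM in HFD and 2.44 CPM in ND (0.40, -0.35 to 1.18). The transcript thus appeared late in the lineage, at a level that did not differ beyond counting error between the libraries.

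In monocyte-like cells Il1r2 was called higher on 22 HFD and 3 ND UMIs, or 1.97 CPM in HFD and 0.435 CPM in ND (2.18, 0.45 to 4.56). Only 1.07% of HFD and 0.278% of ND cells carried a UMI. In erythroid-like cells, which should lack the receptor, the shares were 0.46% in HFD and 0.254% in ND at deeper medians of 17723 and 22718 UMIs, with 0.231 CPM in HFD and 0.194 CPM in ND. T cell-like cells had 3.39 CPM in HFD and 3.97 CPM in ND from 8 and 9 UMIs. The part of free RNA or of neutrophils among these cells was not tested.

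Summed over all kept cells, Il1r2 was the only gene of the 9 to pass the rule, at 13.1 CPM in HFD and 8.51 CPM in ND (0.62, 0.50 to 0.74), where 2.73% of all genes were called higher and 3.98% lower. With the 18 classes weighted alike, its ratio was 0.15 (0.01 to 0.29). The same weighting brought Dusp1 to 0.17 against 0.46 in the sum, Sgk1 to 0.07 against 0.38 and Tsc22d3 to 0.16 against 0.35. For Ddit4 it gave 0.43 against 0.33, and for Nr3c1 0.01 against 0.04. Mature neutrophil-like cells, where Il1r2 and Dusp1 are most abundant, numbered 1503 in HFD and 872 in ND, and monocyte-like cells 1870 in HFD and 1079 in ND. The sums over all cells therefore carry the mix of classes in each library as well as the level within them.

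**Figure D4:**
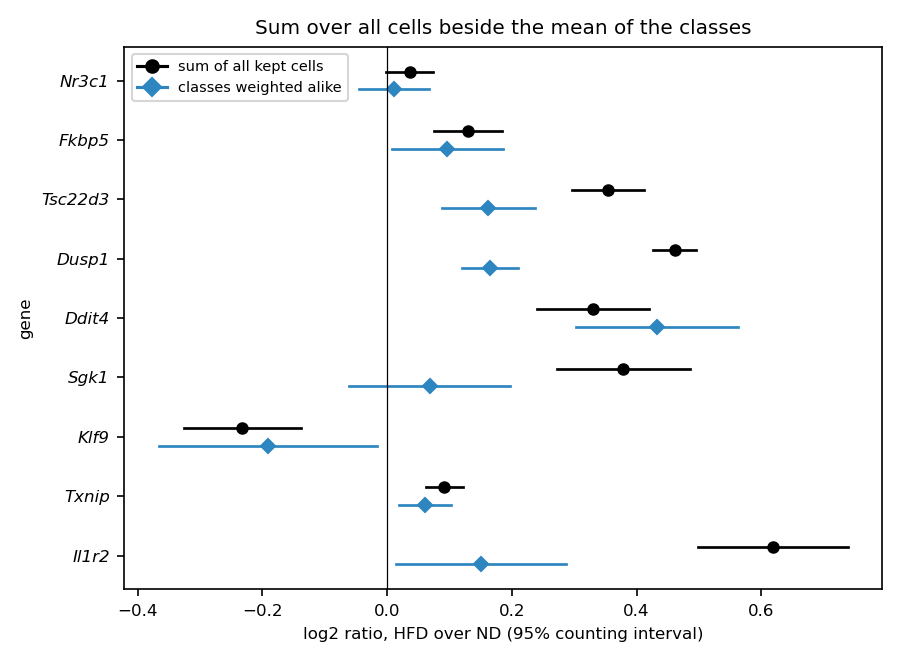
Log2 ratio, HFD over ND library, with 95% counting intervals for the sum of all kept cells (circles) and for the mean of the 18 class CPM values (diamonds). Il1r2 stands at 0.62 in the sum and at 0.15 with classes weighted alike, and Ddit4 at 0.33 and 0.43.

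The median ratio of the 9 genes was highest in monocyte-like cells. There all 9 had ratios above 0, with a median of 0.37, against 50.4% of all genes above 0 and a median of 0.00. Cluster 22 made up 54.1% of HFD and 42.8% of ND monocyte-like cells, so these class ratios also carry that mix. In plasmacytoid dendritic cell-like cells 7 of 7 tested genes were above 0, with a median of only 0.06. In erythroid-like and megakaryocyte-like cells 2 of 8 were above 0, with medians of -0.07 and -0.03. Plasma cell-like cells had 2 of 6 above 0 and a median of -0.35, against a median of -0.07 over all genes there. Mature neutrophil-like cells had 5 of 9 above 0 and a median of 0.00.

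Other genes known to be induced by glucocorticoids were counted in the same way. The shares of all genes called higher and lower were 2.73% and 3.98% over all kept cells, 2.61% and 1.76% in monocyte-like cells, 3.52% and 2.24% in macrophage-like cells and 1.85% and 3.97% in mature neutrophil-like cells. Of 35 tested over all kept cells, Cebpd, a myeloid transcription factor, was called higher (0.62) and Mt2, a metallothionein (-0.93), and Cd163, the haemoglobin scavenger receptor of macrophages (-0.74), were called lower, with a median of 0.12 against -0.03 over all genes. In monocyte-like cells 32 were tested. Tgm2, a transglutaminase, was called higher (1.28), Cd163 (-1.09) and Arrdc2 (-0.80) were called lower, and the median was 0.04. In macrophage-like cells Angptl4 (0.82) and Anxa1 (0.64) were called higher and Cd163 (-0.79) and Mt2 (-0.65) lower, of 27 tested with a median of 0.03. Cd163 there had 918 CPM in HFD and 1588 CPM in ND. In mature neutrophil-like cells 1 of 25 was called higher, the clock gene Per1 (0.78), and 1 lower, Cd163, on 12 HFD and 18 ND UMIs, the share called lower being near that of all genes. Plasma cell-like cells had 0 of 22 higher and 6 lower, with a median of -0.31, against 2.68% and 6.2% of all genes. Erythroid-like cells had 5 of 32 higher and 1 lower, with a median of 0.00, against 3.07% and 1.22%. ILC2-like cells had 4 of 24 higher and 3 lower, with a median of -0.12, against 4.73% and 2.5%.

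The receptor's chaperones, cofactors and the enzymes that activate or inactivate the hormone showed few differences. Of 17 over all kept cells, 0 were called higher and Hsd11b2, which inactivates the hormone, was called lower on 13 HFD and 29 ND UMIs (-1.17), with a median of 0.02. In plasma cell-like cells 2 of 15 were called lower, Nr3c1 itself and the co-chaperone Fkbp4 (-0.59). Fkbp4 was chosen for naming after its value was seen.

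Genes that the receptor is known to repress in inflammation were called in both directions, set here against the shares of all genes just given. Over all kept cells 2 of 18 were called higher, Il1b (0.79) and Il12b, which had 24 HFD and 0 ND UMIs, and none was called lower, with a median of 0.17. In monocyte-like cells Mmp9 (0.90) and Tnf (0.63) were called higher and Cxcl10 lower (-0.76), of 13 tested with a median of 0.20. In macrophage-like cells Mmp9 (0.91) and Cxcl2, on 34 HFD and 2 ND UMIs (4.06, 2.10 to 7.16), were called higher and Ccl5 (-2.13) lower, of 12 with a median of 0.22. Il1b and Mmp9 are also among the markers used to name mature neutrophil-like cells, and Cxcl2 is among the top 10 genes of 1 of their clusters. Immature neutrophil markers summed to 2196 UMIs in HFD and 881 UMIs in ND macrophage-like cells. Of these, 1046 were in 6 of 1522 HFD cells and 63 in 3 of 1718 ND cells. The part of neutrophils in the macrophage-like values was not tested. HSPC-like cells had higher Cxcl10 on 37 HFD and 3 ND UMIs (3.83, 2.17 to 6.18) and lower Ccl3 (-1.11), of 8 tested with a median of -0.35, where 1.36% of all genes were called higher and 2.06% lower. In mature neutrophil-like cells Ccl5 (1.21) was called higher and Ccl4 (-1.62) and Ccl3 (-0.75) lower, of 11 tested with a median of -0.13. In NK cell-like cells 0 of 9 were called higher and 3 lower, with a median of -0.26, against 4.43% of all genes called higher and 2.22% lower. Erythroid-like cells went the other way, with 4 of 9 higher and 0 lower and a median of 0.81, against 3.07% and 1.22% of all genes. So did T cell-like cells, with 3 of 11 higher and 0 lower and a median of 0.47, against 3.42% and 1.73%.

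Ddit4 also belongs to the stress responses to amino acid shortage and hypoxia, so those groups were counted beside it. Of all genes, 2.61% were called higher in monocyte-like cells, 3.52% in macrophage-like cells and 2.73% over all kept cells. In monocyte-like cells 2 of 11 genes of the integrated stress response were called higher, Ddit4 and Atf5 (0.79), with a median of 0.31. In the hypoxia group 3 of 16 were called higher there, Ddit4, Egln3 (1.04) and Pfkfb3 (0.96), with a median of 0.22. In macrophage-like cells Ddit4 and Ddit3 (0.67) were called higher of 8 stress response genes, and Ddit4 alone of 12 hypoxia genes. Over all kept cells the stress response gave 1 of 14, Nupr1 (0.87), with a median of 0.23, and the hypoxia group 1 of 17, Adm (1.05), with a median of 0.11. Which input, if any, goes with the Ddit4 difference was not tested.

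Over all kept cells, 2.73% of all genes were called higher and 3.98% lower. The heat shock group had 3 of 11 genes called higher there, with Hspa1a at 3.68 and a group median of 0.07. Immediate early genes had 2 of 24 called higher, Nr4a1 (1.04), also a marker used to name monocyte-like cells, and Klf2 (0.62), and 2 lower, Egr2 (-1.15) and Egr1 (-0.71), with a median of 0.23. Clock output genes had 0 of 17 called in either direction and a median of 0.00. FoxO and starvation genes had 1 of 14, Klf2, and a median of 0.04. Alpha-arrestins and their MondoA regulators, the group of Txnip, had 0 of 10 and a median of 0.06. Heat shock genes were called higher in every class compared, from 1 of 7 in mature neutrophil-like to 5 of 8 in ILC2-like cells. Of all genes, 1.85% and 4.73% were called higher there. The group medians ran from -0.04 to 0.67 in the same classes. Plasma cell-like cells had 4 of 11 higher and 1 lower. In HSPC-like cells Hspa1a had 206 HFD and 7 ND UMIs, and Hspa1b 419 HFD and 33 ND UMIs. The bearing of these calls on Dusp1 and Ddit4 was not tested.

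The pattern of each gene across classes was compared with those of all other genes by Pearson correlation of log2(CPM + 10) over 36 points, 18 classes in each of 2 libraries, which share libraries and class depths. Genes much like Dusp1 were Junb (0.87) and Fos (0.86), and Txnip most like Junb (0.87), Pnrc1 (0.86) and Dusp1 (0.84). Il1r2 was most like Scrg1, Platr7 and Gpr27, each at 0.99. Ddit4 was most like Wdr44 (0.89), Tecpr1 (0.87) and Tnfaip3 (0.84), and Sgk1 most like AB124611 (0.85), Osbpl9 (0.84) and Abi1 (0.82). Tsc22d3 was most like Arhgap30, Ptk2b and Mcl1, each at 0.83, and Nr3c1 most like Chmp1b (0.83), Rela (0.82) and Map3k2 (0.82). Fkbp5 was most like Slco3a1 (0.81), Cnnm3 (0.79) and Pigx (0.77), and Klf9 most like 9130401M01Rik (0.81), Thra (0.76) and Smyd3 (0.75).

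Among the 9 genes themselves, Txnip and Dusp1 were the most alike pair (0.84) and Klf9 and Tsc22d3 the least (-0.48). Fkbp5 and Tsc22d3, both direct receptor targets in many tissues, were at -0.24 across classes. The receptor was at 0.54 with Ddit4, 0.53 with Sgk1, 0.51 with Tsc22d3 and 0.13 with Fkbp5. The 9 genes thus do not share a pattern across marrow cell classes.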

How the data were processed

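The authors deposited counts per gene and cell, that is UMIs after RSEC error correction. Per the file headers, they came from the BD WTA Rhapsody Analysis Pipeline, version 1.9.1. The genome build behind them is not given in the sources used here. The deposited values were whole numbers throughout. There were 22263 genes in the HFD file and 22229 genes in the ND file, with 20478 of 24014 symbols in common, and an unlisted symbol was set to 0. The 5 antibody tags were not used.

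The cell filter asked for 200 or more genes and 25% or less mitochondrial UMIs, and it removed 1632 HFD and 2515 ND cells. Doublets called by Scrublet inside each library, with the expected rate set to 0.05, were then taken out (436 HFD and 412 ND cells). Kept cells had a median of 4075.5 UMIs in HFD and 4480 UMIs in ND. Clustering used scanpy 1.11.5 with igraph 0.11.9 and scikit-learn 1.9.0 on the joined libraries, without integration. Cells were scaled to 10000 UMIs, and the 2000 variable genes excluded the 9 genes described. Clustering took 30 principal components, 15 neighbours and a Leiden resolution of 1.0. A cluster was named for the class that had most markers in its top 50 genes by fold (pseudocount 10 CPM, detection in 10% of its cells). It needed 3 or more markers, and its top 10 could not hold more markers of another class. Of 33 clusters, 1 stayed unnamed and a stromal-like cluster was too small to compare. Names end in "-like" because markers alone support them.

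Class sums of UMIs were compared as CPM with exact conditional binomial 95% intervals, where a count of 0 was replaced by a floor of 3. No test is possible with a single library for each diet. All 9 genes are reported in every class compared. From each other list, up to 4 genes past the size rule are named in all kept cells or in neutrophil, monocyte, HSPC and macrophage classes, along with the 3 genes of highest correlation to each of the 9. Some genes that this rule names are not reported here. Clusters needed 50 cells per library. The genes, lists and classes were chosen with earlier results of these data known. Alternatives changed the cell filter, doublets, resolution, scaling, weighting, depth, count minimum and variable genes. The ratio and its interval were tested on simulated data. Computations ran in Python 3.11.15 with numpy 2.4.6, pandas 2.3.3 and scipy 1.17.1, and figures were drawn with matplotlib 3.10.9.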

Additional observations from a re-analysis of the deposited data

Results flagged for a closer look

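Tsc22d3 differed in direction between classes under the same contrast of HFD over ND. Its log2 ratio was 0.82 in eosinophil-like cells and -0.66 in plasma cell-like cells, both past the size rule. The difference between the classes was not tested, since each diet has 1 library, and the plasma cell-like value changed sign when cells were thinned to equal depth.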

How the results depend on the processing

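Of the 12 called pairs of gene and class, all 12 kept their call with median-of-ratios size factors and with totals that left out mitochondrial, haemoglobin, S100a8 and S100a9 UMIs. The number of pairs called higher, 9, ran from 7 with a minimum of 100 UMIs to 13 with doublets kept. The number called lower, 3, was 1 in cells thinned to 1000 UMIs, where fewer pairs reach the minimum, and 4 with doublets kept. Thinning kept 4 of the 9 calls still testable and reversed Tsc22d3 in plasma cell-like cells, at 0.44; the cause was not tested. Over all kept cells, the single gene called higher became 0 with thinning and 0 with classes weighted alike, where Il1r2 stood at 0.51 and 0.15. At resolutions 0.5 and 2.0 the calls kept were 10 and 10 of 12. The alternatives without cluster 18, without cluster 22, without immunoglobulin UMIs in the totals and without neutrophil-marker-rich cells were chosen after seeing the data, and kept 12, 11, 12 and 12 calls. No called pair was in immature neutrophil-like cells, the class of cluster 18, so leaving that cluster out could not change a call. Leaving out cluster 22 could change only the 3 calls of monocyte-like cells, of which that of Dusp1 was lost. No paired analysis was possible because each diet has 1 library and no replicate number. Low counts limit Il1r2 outside neutrophils, where 13 of 18 classes held under 20 UMIs. The erythroid-like class was among them, at median depths of 17723 UMIs in HFD and 22718 UMIs in ND.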
